A study of Homo sapiens with 4 samples.

Results

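The interferon regulatory factors (IRFs) are a family of transcription factors that share a DNA-binding domain and bind promoters of interferons and interferon-stimulated genes. They were followed in KYSE410 cells, a long-established line grown from a human squamous carcinoma of the oesophagus. The members were chosen by name, as the probe sets whose RefSeq transcript maps to one of 8 IRF genes, IRF1, IRF2, IRF3, IRF4, IRF5, IRF7, IRF8 and IRF9. Of these 8 genes 7 had a probe set, among 17185 named genes on the array, and IRF7 had 2, which gave 8 probe sets of 3 probes each. No probe set matched IRF5, so it is not analysed here. Cells of the line were exposed for 24 h to TNFα (a tumour necrosis factor), to the interleukin IL1β, to lipopolysaccharide (LPS, a component of the Gram-negative bacterial envelope) or to the control solvent PBS, a phosphate-buffered saline. All 4 groups grew in RPMI 1640 medium with fetal bovine serum, penicillin and streptomycin, and neither labels nor files state a dose. The experiment looked for mRNAs that respond to inflammatory stimuli.

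Interferon regulatory factors act at several steps of innate immunity. IRF3, IRF5 and IRF7 are held in the cytoplasm until sensors of microbial products trigger their phosphorylation, after which they enter the nucleus and switch on interferon genes. IRF9 is part of the complex ISGF3, which carries the signal of type I and type III interferons. IRF1 and IRF2 are regulated largely through the amount of their transcripts and proteins and bind the same DNA element, IRF1 mainly as an activator and IRF2 mainly as its antagonist. IRF4 and IRF8 are known chiefly from lymphocytes and myeloid cells.

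RNA of each condition was measured on 1 single-colour array, so every difference lacks a replicate check and carries neither SD nor p-value. Precision is limited by there being 4 arrays in all. Values are RMA intensities on a linear scale (probe set summaries after robust multi-array averaging), and differences are log2 intensities of one array minus another. The words higher and lower are kept for genes with a difference of 2-fold or more whose larger intensity was not under a floor of 260 (the median over named genes of the mean log2 intensity, 8.02). A value below 2 times the intensity of random-sequence control probes on its array, a limit between 108 and 113, is called near background. The closest thing to a repeat measurement is a second probe set of the same gene on the same array. Both sets read the same RNA, so their disagreement does not measure variation between cultures or between hybridizations. The sets are assigned to different transcripts of the gene, so their disagreement can also include a difference between transcripts. The log2 differences of 2 such sets disagreed with an SD of 0.59 for TNFα minus PBS (682 genes), 0.62 for IL1β minus PBS (682 genes) and 0.78 for LPS minus PBS (708 genes). The squamous identity of the line was present on every array, with 14 of 14 epithelial markers above the near-background limit, among them the basal keratin KRT5 at 58314 with TNFα, 48523 with IL1β, 59820 with LPS and 49361 with PBS. Transcripts of other tissues were present too and differed between arrays. The summed intensity of 15 myeloid markers was 16415 with TNFα, 17790 with IL1β, 3329 with LPS and 11004 with PBS, and that of 9 cardiac muscle markers was 50983, 58806, 14789 and 38746 in the same order. The lysozyme gene LYZ was at 5600 with TNFα, 10390 with IL1β, 209 with LPS and 6917 with PBS. It made up most of the myeloid sum with IL1β and PBS, but not with TNFα or LPS. The sum does not stand for every marker, since AIF1 and FCN1 were higher with LPS than with PBS. Of the 15 myeloid markers 2 were near background with TNFα, 3 with IL1β, 9 with LPS and 4 with PBS. In bulk RNA, fewer cells of a type and less RNA per cell cannot be told apart.

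Within the family, IRF1 and IRF2 were higher with each of the 3 stimuli than with PBS, and no member was lower. IRF1 was 6.96-fold higher with TNFα, 3.37-fold with IL1β and 4.79-fold with LPS. IRF2 was 4.31-fold higher with TNFα, 5.97-fold with IL1β and 5.72-fold with LPS. IRF3, IRF7, IRF8 and IRF9 stayed under 2-fold in each of the 3 comparisons when each gene is represented by its brighter probe set, and IRF4 was near background on every array. The 2 of 7 members that were higher stand beside 1.84% of all named genes with TNFα, 1.72% with IL1β and 4.97% with LPS. None of 7 was lower, where 1.86%, 1.96% and 4.18% of all named genes were. Both directions together made up 3.71% of named genes with TNFα, 3.68% with IL1β and 9.15% with LPS. The median log2 difference over the 7 members was 0.11 with TNFα, 0.0093 with IL1β and 0.05 with LPS, against -0.03, -0.03 and 0.02 over all named genes, so the typical member differed little and the family's largest differences lay in IRF1 and IRF2. All 3 comparisons share the single PBS array, and no comparison of a stimulus with PBS is independent of it.

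**Figure D1:**
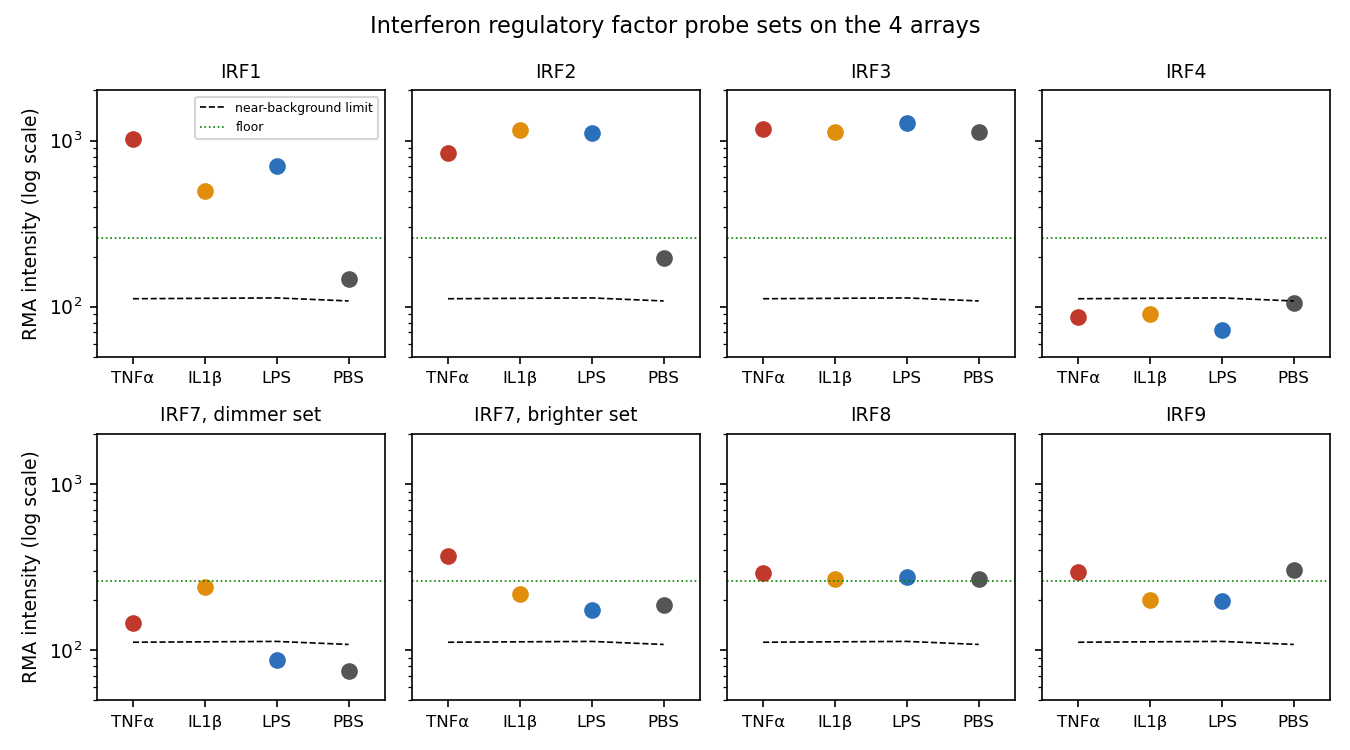
RMA intensity (log axis) of each interferon regulatory factor probe set on the TNFα, IL1β, LPS and PBS arrays, 1 point per array, with the near-background limit (dashed) and the floor of 260 (dotted). IRF1 and IRF2 lie below the floor with PBS and above it with each stimulus, IRF3 and IRF8 are level, and IRF4 is under the near-background limit on all 4 arrays.

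IRF1, an activator of antigen presentation and antiviral genes, is a classic early target of NF-κB and of interferon signalling. Its intensity was 1023 with TNFα, 495 with IL1β, 704 with LPS and 147 with PBS. The order was TNFα, LPS, IL1β and PBS. The TNFα and LPS values differed 1.45-fold and the LPS and IL1β values 1.42-fold, both under the 2-fold limit, while the gap between IL1β and PBS was 3.37-fold. With PBS the signal was 2.72 times the random control probes, above the near-background limit and below the floor. Among the genes that reached the floor in a comparison, the log2 difference of IRF1 ranked 30th from the top of 9419 with TNFα (2.80), 87th of 9427 with IL1β (1.75) and 124th of 9675 with LPS (2.26). With the floor moved to the 75th percentile (9.56 log2) IRF1 was called with TNFα but no longer with IL1β or LPS, where its intensity lay below that floor.

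The promoter of IRF1 is shown because its letters match a κB and a GAS motif. The sequence is that of RefSeq for GRCh38.p14, chr5:132490724-132491023, minus strand, from 250 bases before to 50 bases after the gene's start, written 5′ to 3′. Capitals mark the matches of 2 of 3 motifs searched on both strands.
IRF1 promoter: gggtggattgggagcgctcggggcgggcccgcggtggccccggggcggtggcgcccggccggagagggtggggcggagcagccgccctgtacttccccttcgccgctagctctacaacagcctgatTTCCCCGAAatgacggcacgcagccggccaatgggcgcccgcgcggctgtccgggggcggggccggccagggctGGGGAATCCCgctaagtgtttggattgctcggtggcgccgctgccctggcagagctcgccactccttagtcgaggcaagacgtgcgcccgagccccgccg
The earlier capitals, TTCCCCGAA at positions -124 to -116 from the start, match the STAT element GAS, searched as TTCNNNGAA. The later ones, GGGGAATCCC at -50 to -41, match the κB consensus of NF-κB. The IRF-STAT element ISRE, searched as GAAANNGAAA, had no match in this window. Among 35116 RefSeq promoters of the same length, 7.66% held a GAS match, 5.91% a κB match and 3.57% an ISRE match. No overlap of motifs occurred here, and a match of letters is a description of the sequence only.

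IRF2 represses many of the promoters that IRF1 activates. It had an intensity of 840 with TNFα, 1164 with IL1β, 1116 with LPS and 195 with PBS. The 3 stimulated arrays lay within 1.39-fold of each other, and the PBS array lay apart from them. With PBS the signal was 3.60 times the random control probes. The log2 difference from PBS ranked 61st of 9419 genes at the floor with TNFα (2.11), 28th of 9427 with IL1β (2.58) and 84th of 9675 with LPS (2.52). IRF2 differed from IRF1 in which stimulus gave the highest value, IL1β for IRF2 and TNFα for IRF1.

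The 2 genes can be set against each other without the PBS array. Between the TNFα and IL1β arrays, IRF1 differed by 1.05 and IRF2 by -0.47 on the log2 scale (TNFα minus IL1β), so that IRF1 relative to IRF2 was greater with TNFα by 2.86-fold. The same quantity, IRF1 minus IRF2 in log2 difference, was -0.95 for LPS minus TNFα and 0.57 for LPS minus IL1β. Relative to PBS it was 0.69 with TNFα, -0.83 with IL1β and -0.26 with LPS. These contrasts show unequal differences of 2 probe sets and not a ratio of transcripts. They were computed after the values had been seen.

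**Figure D2:**
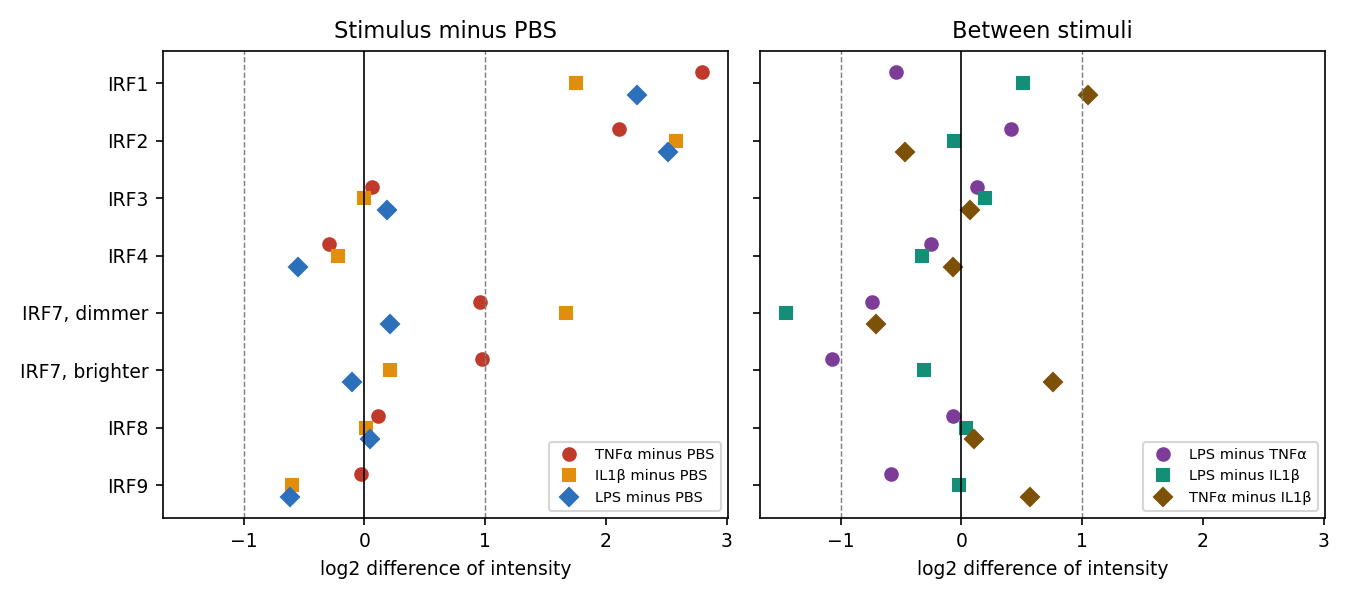
Log2 difference of intensity for each probe set, stimulus minus PBS on the left and between stimuli on the right, with dashed lines at a 2-fold difference. IRF1 and IRF2 lie beyond the line in all 3 comparisons with PBS, and between stimuli IRF1 (TNFα minus IL1β, 1.05) and the brighter IRF7 set (LPS minus TNFα, -1.07) just pass it. The dimmer IRF7 set also lies beyond it for IL1β minus PBS (1.67) and LPS minus IL1β (-1.45), with intensities below the floor.

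IRF3, the factor held ready for sensors of nucleic acids and LPS, is known to be regulated by phosphorylation more than by transcript level. Its intensity was 1174 with TNFα, 1118 with IL1β, 1281 with LPS and 1123 with PBS. The highest and lowest arrays differed 1.15-fold. Its log2 difference from PBS was 0.06 with TNFα, -0.0059 with IL1β and 0.19 with LPS. The array gives no view of phosphorylation.

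IRF7, which amplifies interferon production and is itself induced by interferon, was read by 2 probe sets that disagreed with IL1β. The brighter set (NM_004031) had 368 with TNFα, 217 with IL1β, 175 with LPS and 187 with PBS. The dimmer set (NM_001572) had 146 with TNFα, 239 with IL1β, 87.3 with LPS and 75.2 with PBS, the last 2 near background. With TNFα both sets had almost the same log2 difference from PBS, 0.97 for the brighter (1.97-fold) and 0.96 for the dimmer (at least 1.35-fold, since its PBS value was near background). With IL1β they parted, at 0.21 for the brighter and 1.67 for the dimmer. The dimmer value with IL1β, at least 2.21-fold that with PBS, did not reach the floor, so IRF7 was not counted as higher with either set. With LPS the difference from PBS was -0.10 for the brighter set and 0.21 for the dimmer. The 2 sets thus gave like differences for TNFα and unequal ones for IL1β. They are assigned to different transcripts of IRF7, and the part of this in their disagreement was not tested.

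IRF9, the DNA-binding subunit of ISGF3, had an intensity of 296 with TNFα, 200 with IL1β, 198 with LPS and 303 with PBS. The TNFα and PBS arrays were alike, and the IL1β and LPS arrays were alike at 1.51-fold and 1.53-fold under PBS, short of the 2-fold limit. The log2 difference from PBS was -0.03 with TNFα, -0.60 with IL1β and -0.61 with LPS. The SD of the disagreement between 2 probe sets of a gene was 0.62 and 0.78 in the last 2 comparisons. That SD combines the spread of 2 differences, so it is not a direct scale for the difference of 1 set. IRF9 ranked 1056th from the bottom of 9427 genes at the floor with IL1β. Its promoter is shown because, like that of IRF1, it holds a GAS match. The part of the motif in the signal of either gene was not tested. It spans chr14:24161015-24161314 of GRCh38.p14 on the plus strand, with the match in capitals at -63 to -55.
IRF9 promoter: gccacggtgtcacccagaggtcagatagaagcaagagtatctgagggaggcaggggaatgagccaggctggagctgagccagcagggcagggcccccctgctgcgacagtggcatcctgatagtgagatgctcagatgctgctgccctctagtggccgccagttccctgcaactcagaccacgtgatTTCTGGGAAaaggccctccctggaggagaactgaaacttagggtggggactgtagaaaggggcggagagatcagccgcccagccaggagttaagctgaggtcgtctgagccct
Neither a κB nor an ISRE match occurred in this window. Of the 8 genes 5 had a promoter in the RefSeq table, and those of IRF4, IRF5 and IRF8 had no match of any of the 3 motifs in their windows.

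IRF4 and IRF8, the lymphoid and myeloid members, were near background or level over the arrays. IRF8, which directs monocyte and dendritic cell development, had an intensity of 290 with TNFα, 270 with IL1β, 277 with LPS and 268 with PBS, a range of 1.08-fold. IRF4, a factor of plasma cells and activated lymphocytes, had 86.2 with TNFα, 90.7 with IL1β, 72.3 with LPS and 106 with PBS, near background on all 4 arrays. Against this, 5 of 15 myeloid markers were higher and none lower with TNFα, 6 higher and none lower with IL1β, and 2 higher and 4 lower with LPS, each against PBS. Of all named genes 1.84% were higher and 1.86% lower with TNFα, 1.72% and 1.96% with IL1β, and 4.97% and 4.18% with LPS. The Fc receptor FCGR3A was at 2906 with TNFα, 730 with IL1β, 84.8 with LPS and 212 with PBS. The markers higher with LPS were AIF1, at 1193 with TNFα, 998 with IL1β, 1386 with LPS and 185 with PBS, and FCN1, at 1439, 455, 440 and 118 in the same order. The integrin ITGAM was near background throughout. Of 8 general leukocyte markers 2 (PTPRC and CD53) were higher and 1 (ITGB2) lower with each of TNFα and IL1β, and ITGB2 alone was lower with LPS. The phosphatase PTPRC (CD45) was at 1295 with TNFα, 1046 with IL1β, 81.5 with LPS and 91.5 with PBS. Of 12 B and plasma cell markers none was higher in any of the 3 comparisons, 1 (CD79A) was lower with LPS, and the B cell antigen MS4A1 and the plasma cell receptor TNFRSF17 were near background on all arrays. Of 11 T and NK cell markers none was higher, LCK was lower with each stimulus, PRF1 was lower with LPS, and CD2 and CD3E were near background on all arrays. The part of these transcripts in the IRF1 and IRF2 differences was not tested in any comparison.

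**Figure D3:**
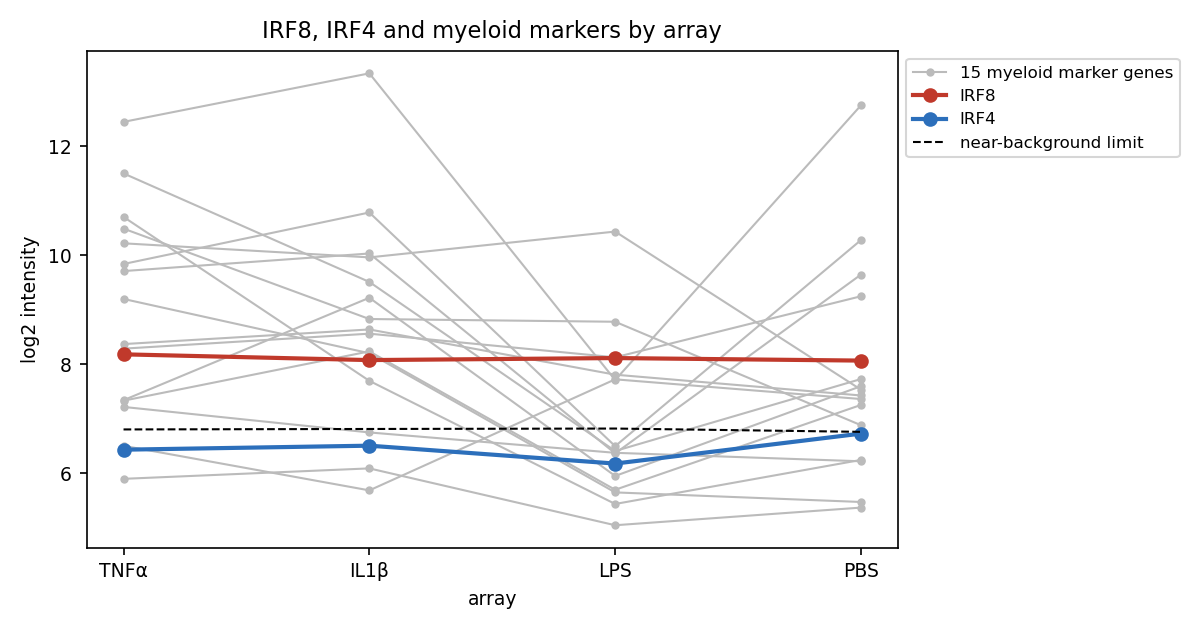
Log2 intensity of IRF8, IRF4 and 15 myeloid marker genes on the TNFα, IL1β, LPS and PBS arrays, with lines joining the values of 1 gene and the near-background limit dashed. IRF8 spans 1.08-fold over the arrays while single myeloid markers move by several log2 units, and IRF4 stays under the limit.

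The stimuli were also compared directly, without PBS. With TNFα the IRF1 signal was 2.07-fold above that with IL1β, the 1 member of 7 to pass the rule, where 1.01% of named genes were higher and 0.937% lower (1.94% together). It ranked 155th of 9270 genes at the floor, and the SD of the disagreement between 2 probe sets of a gene in that comparison was 0.49 (664 genes). Its call was lost when an offset was added before log2 (0.98). The brighter IRF7 set was 2.11-fold lower with LPS than with TNFα, again 1 of 7, where 3.99% of named genes were lower and 5.58% higher (9.57% together). That value lies close to the threshold and fell under it with the mean of both IRF7 sets (-0.91). No member passed the rule for LPS against IL1β, where 5.96% of named genes were higher and 4.21% lower (10.2% together). The largest log2 difference there was that of the dimmer IRF7 set, -1.45 for LPS minus IL1β, with both intensities below the floor.

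**Figure D4:**
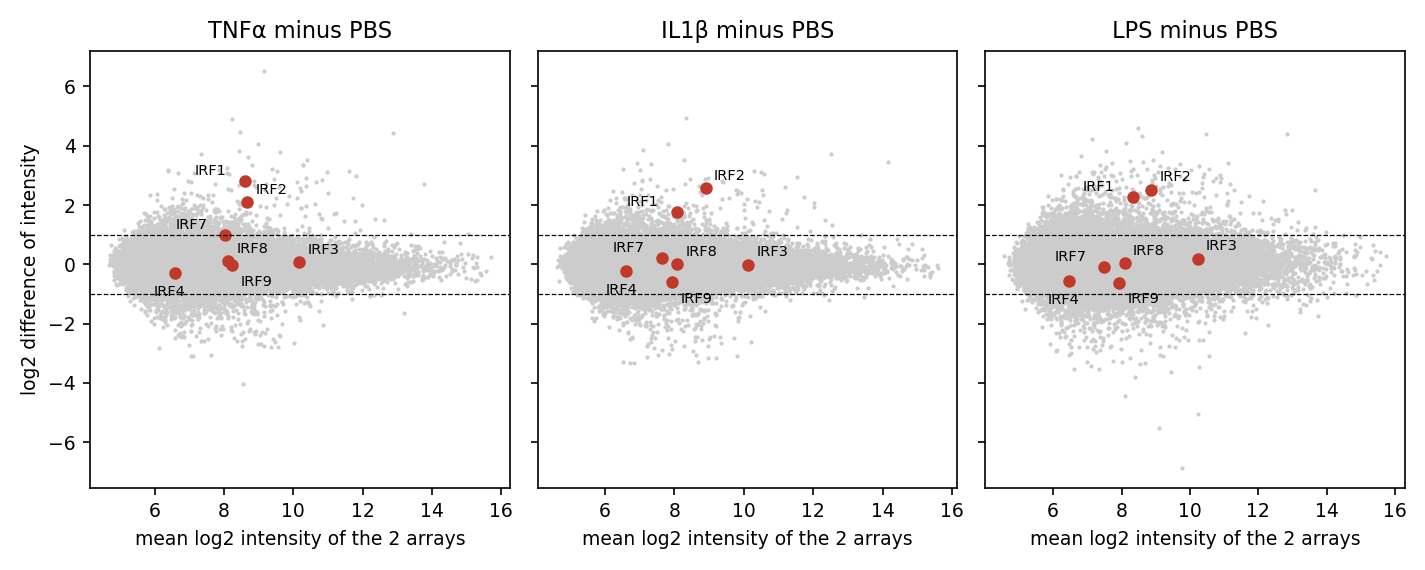
Log2 difference from PBS against the mean log2 intensity of the 2 arrays for 17185 named genes (grey) and the 7 interferon regulatory factors (red), with dashed lines at a 2-fold difference. IRF1 and IRF2 lie above the bulk of genes of like intensity in each panel. The remaining members lie between the dashed lines, IRF7 close to the upper line with TNFα (0.97).

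Genes whose pattern over the 4 arrays was most like IRF1 and IRF2 were taken from 194 candidate genes called in the same 3 comparisons, by the distance between their 3 log2 differences from PBS. Nearest to IRF1 was the macrophage chemokine CCL3 (distance 0.15 log2), with intensities of 862 with TNFα, 466 with IL1β, 678 with LPS and 136 with PBS. It was followed by TNFSF9 (0.38), the ligand of 4-1BB, TNFAIP8L2 (0.45), the membrane protease MMP14 (0.61) and the hypoxia factor HIF1A (0.62). Nearest to IRF2 were the ephrin EFNA1 (0.42), the transcription factor SNAI1 (0.45), the chemokine CCL5 (0.55), the guanylate-binding protein GBP2 (0.55) and the interferon-γ receptor chain IFNGR2 (0.56). All of these were selected for likeness, and each distance rests on 4 arrays with a shared PBS value.

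The genes around the family were described from lists chosen with earlier results of these data known. Each list count below stands beside the share of all named genes in the same comparison. That share was 1.84% higher and 1.86% lower with TNFα, 1.72% and 1.96% with IL1β, and 4.97% and 4.18% with LPS. Of genes at the floor, 3.37% were higher with TNFα, 3.13% with IL1β and 8.83% with LPS. Among ligands, the interferons themselves were mostly below the floor. Of 20 interferon genes none was higher or lower with TNFα or IL1β and 1 was higher with LPS. Interferon β, IFNB1, was at 39 with TNFα, 63.1 with IL1β, 30.9 with LPS and 38.5 with PBS, near background on each array. The gene higher with LPS was the keratinocyte interferon IFNK, at 37.8 with TNFα, 32 with IL1β, 304 with LPS and 75.8 with PBS. It was at least 2.81-fold higher with LPS than with PBS. IFNA16 lay above the floor on all 4 arrays, at 737 with TNFα, 634 with IL1β, 386 with LPS and 528 with PBS, and was not called. At most 2 of the 20 genes reached the floor in any comparison with PBS.

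Several receptor chains were higher with all 3 stimuli. Of 15 receptor and JAK-STAT genes 3 were higher and 1 lower with TNFα, 4 higher and 1 lower with IL1β, and 3 higher and 2 lower with LPS. The fourth higher gene with IL1β was the kinase JAK1. Their median log2 differences were 0.23, -0.0045 and 0.42. IL10RB, a chain of the receptors for interferon λ and interleukin 10, was at 3627 with TNFα, 4220 with IL1β, 3715 with LPS and 485 with PBS. IFNGR1, the ligand-binding chain of the interferon-γ receptor, was at 613, 591, 2009 and 213 in the same order. Its partner IFNGR2 was at 2306, 2692, 2956 and 618. The phosphatase PTPN11 (SHP2), which restrains STAT signalling, was at 281, 261, 386 and 1625, 5.79-fold lower with TNFα, 6.23-fold with IL1β and 4.21-fold with LPS. IL10RB, IFNGR2 and PTPN11 shared with IRF2 a PBS value that stood apart from 3 similar stimulated values.

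STAT2, a partner of IRF9 in ISGF3, was not higher with any stimulus. It was at 741 with TNFα, 837 with IL1β, 263 with LPS and 885 with PBS, 3.36-fold lower with LPS than with PBS. Of 14 partners and regulators of the family none was higher or lower with TNFα or IL1β, and with LPS 2 were higher and 3 lower, with medians of -0.04, -0.0029 and -0.06 for TNFα, IL1β and LPS. IRF2BP2, a corepressor that binds IRF2, was 2.56-fold higher with LPS, and its relative IRF2BPL was 2.72-fold lower. The third lower gene was BATF, a partner of IRF4 and IRF8. STAT2 is in both lists.

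Many sensors, adaptors and kinases upstream of IRF3, IRF5 and IRF7 were too dim to pass the rule. Those that reached the floor numbered 13 of 22 with TNFα against PBS, 10 with IL1β and 11 with LPS. Of 22 genes 3 were higher with TNFα, 1 with IL1β and 1 with LPS, and none was lower, with medians of -0.08, -0.25 and 0.01. Of all named genes 1.84%, 1.72% and 4.97% were higher in the same comparisons. The kinase TBK1, which phosphorylates IRF3, was at 730 with TNFα, 667 with IL1β, 771 with LPS and 762 with PBS. IRAK1, a kinase of Toll-like and interleukin 1 receptors, was at 8941, 8685, 9025 and 3089, 2.89-fold, 2.81-fold and 2.92-fold higher. The RNA sensor IFIH1 (MDA5) was 2.06-fold higher with TNFα, at 362 against 176 with PBS. TLR4, the LPS receptor, was at least 3.82-fold higher with TNFα in 1 probe set, while its other sets were near background on all arrays.

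Target genes of IRF1 and of ISGF3 were higher in part. Of 26 IRF1 targets 4 were higher with TNFα, 4 with IL1β and 5 with LPS, and none was lower, with medians of 0.25, 0.07 and 0.42. TAP1, the peptide transporter of class I antigen presentation, was at 2596 with TNFα, 2877 with IL1β, 5369 with LPS and 666 with PBS. It was thus highest with LPS, whereas IRF1 was highest with TNFα. CCL5, a T cell chemokine, was at 1195, 1118, 966 and 196. GBP2, an interferon-induced GTPase, was at 300.3, 387, 436 and 86.6, near background with PBS alone, and at least 2.78-fold, 3.57-fold and 4.03-fold higher. BST2, which tethers budding viruses, was at 528, 436, 2513 and 462, higher with LPS. The immunoproteasome subunit PSMB8, counted above by its brighter set, was higher in its brighter set and lower in the other with TNFα (1.37 and -1.59) and IL1β (2.34 and -1.93), so no direction is given for it. CIITA, the class II master regulator, was near background on all arrays, as was the chemokine CXCL10 on all but the TNFα array, where it was at 118.

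Of 26 ISGF3 targets 6 were higher and none lower with TNFα, 3 higher and 1 lower with IL1β, and 5 higher and none lower with LPS, with medians of 0.44, 0.04 and 0.14. Among all named genes 1.84% were higher with TNFα, 1.72% with IL1β and 4.97% with LPS. IFIT2 and IFIT3, which bind viral RNA or stabilise its sensors, had 627 and 737 with TNFα, 959 and 562 with IL1β, 1044 and 1063 with LPS, and 292 and 268 with PBS. MX1, an antiviral GTPase, was at 781 with TNFα, 233 with IL1β, 157 with LPS and 236 with PBS. IFI6 was at 873, 622, 583 and 274. The gene lower with IL1β was MX2. MX1, IFI6 and the brighter IRF7 set were each highest on the TNFα array. IFIT2 and IFIT3 were highest on the LPS array, and the dimmer IRF7 set on the IL1β array. IRF9 and STAT2 were not higher with any stimulus. Among 14 NF-κB subunits and targets 4 were higher with TNFα, 4 with IL1β and 8 with LPS, and 1, RELA, was lower with LPS. IL6, the acute-phase interleukin, was at 1886 with TNFα, 1427 with IL1β, 6426 with LPS and 308 with PBS, and the neutrophil chemokine CXCL8 at 4547, 2051, 3889 and 394. The A20 gene TNFAIP3 was at 773 with TNFα, 763 with IL1β, 5316 with LPS and 703 with PBS, higher with LPS only. CXCL8 had the same order of arrays as IRF1, which was TNFα, LPS, IL1β and PBS. In both genes the LPS value was less than 2-fold from the TNFα and the IL1β value, so that part of the order is uncertain. IL6 was also highest with LPS and lowest with PBS, with its TNFα and IL1β values less than 2-fold apart. For TNFAIP3 the TNFα, IL1β and PBS values were too close to order.

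**Figure D5:**
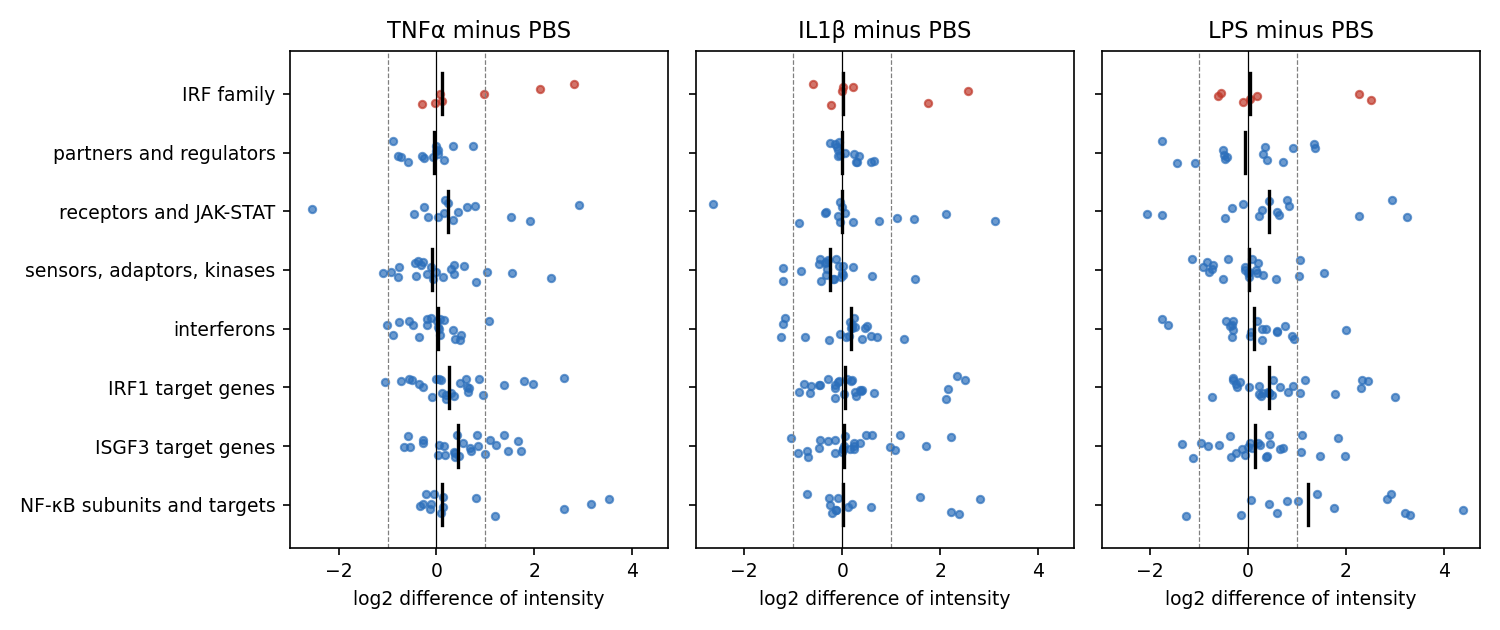
Log2 difference from PBS of every measured gene in the family and in 7 gene lists around it (1 point per gene, brighter probe set), with the list median as a black bar and dashed lines at a 2-fold difference. The family's median sits near 0 in each panel with IRF1 and IRF2 apart from it, and the NF-κB list has a median of 1.22 with LPS.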

How the data were processed

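The authors deposited 1 table per array with an RMA intensity for each of 45033 probe sets, per the file headers and the files' names, and a series value table that held the same intensity values. RNA was labelled with Cy3 by a one-colour NimbleGen kit, per the labels' protocols, and no header or label names the RMA software or its settings. RMA in its usual form equalises the distributions of arrays, so a difference is relative to the bulk of genes.

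Transcript accessions were matched without versions to RefSeq of GRCh38.p14. In all 18866 probe sets matched 1 symbol (17185 genes) and 26167 did not. Where a gene had several probe sets, the one brightest on average (log2) stood for it. With 1 array per condition no test was made. On simulated data the script was tested for recovering known folds. Besides IRF1, IRF2, IRF3, IRF4, IRF5, IRF7, IRF8 and IRF9, another gene of the family is not reported here, nor are some genes of the lists.

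The members, gene lists and tests were chosen with earlier results of these data known. Named were all members, up to 4 genes of each list with the largest called difference, and the 5 genes nearest to each called member. Genes outside that rule (TBK1, IFNB1, IFNA16, CIITA, CXCL10, KRT5, ITGAM, MS4A1, TNFRSF17, CD2, CD3E, JAK1, BATF, MX2, RELA, AIF1 and FCN1) were chosen after their values were seen. A fold with 1 array near background was taken against that array's limit and written "at least". Tried as alternatives were thresholds of 1.5-fold and 3-fold, removal of the floor or its move to the 75th percentile, averaging a gene's probe sets, an offset of 50.9 before log2, loess centring, a second quantile step, and the values of the series table. Added after the data had been seen was a floor without the LPS array. Loess came from statsmodels 0.14.6, figures from matplotlib 3.10.9, and the rest ran in Python 3.11.15 with pandas 2.3.3 and numpy 2.4.6.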

Additional observations from a re-analysis of the deposited data

How the results depend on the processing

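IRF1 and IRF2 were the members called with TNFα against PBS under every alternative, joined by IRF7 at 1.5-fold. They were also the ones called with IL1β and LPS, except that only IRF2 (1 member each) passed a floor at the 75th percentile, and IRF9 was called lower as well at 1.5-fold. Over the alternatives the log2 difference of IRF1 ranged from 2.44 to 2.83 with TNFα, 1.46 to 1.77 with IL1β and 1.93 to 2.28 with LPS, and that of IRF2 from 1.86 to 2.14, 2.30 to 2.62 and 2.25 to 2.52. For LPS against TNFα, the 1 member (IRF7) became 0 with the higher floor, the mean of probe sets, repeated quantile normalization, the offset and the 3-fold threshold. For TNFα against IL1β, the 1 member (IRF1) became 0 with the offset and at 3-fold and 2 at 1.5-fold. With the mean of its probe sets IRF7 had 0.94 for IL1β minus PBS, against 0.21 for the brighter set, and 0.026 for TNFα minus IL1β, against 0.76. Called genes over the 7 lists around the family numbered 21 with TNFα, and 11 with the higher floor, 36 at 1.5-fold and 12 at 3-fold. With LPS they numbered 30, and 18 at 3-fold. Of all named genes 3.71% were called with TNFα and 9.15% with LPS at the main threshold and floor. A stricter floor or threshold passes fewer genes by construction, and the cause of the other shifts was not tested. With the floor and probe sets chosen without the LPS array, the members called were the same for TNFα against PBS, IL1β against PBS and TNFα against IL1β, and the LPS comparisons were not run this way. No paired analysis was possible because each condition had 1 array. Signals near background limit IRF4, the dimmer IRF7 set and most interferon genes.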
